A study of Homo sapiens with 4 samples.

Results

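Aminoacyl-tRNA synthetase genes were followed in H929, an established line of human myeloma cells, after knockdown of ILF2 with a short hairpin RNA (shRNA) or with a non-silencing control hairpin. ILF2 encodes a protein that acts in complexes on double-stranded RNA. The 36 genes were taken by name from the 63677 genes in the files: 19 for cytosolic enzymes, 15 for mitochondrial enzymes and 2, AIMP1 and AIMP2, for scaffold proteins that hold cytosolic enzymes together. Every name matched a single gene, and all 36 genes passed the filter on low counts. Total RNA depleted of ribosomal RNA was sequenced from 2 libraries per group, and no drug, dose or time after transduction is given in the sources used here. Both groups share the cell line and the delivery of a hairpin by transduction. The labels call the replicates independent, but do not say whether the ILF2 shRNA libraries share a hairpin or a transduction. The spread behind each p-value is that between these libraries, largely pooled over all genes by the fit, and may be technical. Effects of the hairpin on other genes cannot be told apart from loss of ILF2.

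Aminoacyl-tRNA synthetases join each amino acid to its transfer RNA (tRNA), and the ribosome depends on these charged tRNAs for accurate decoding. The letter that opens a gene name gives the amino acid, so that QARS1 charges glutamine tRNA. A final 1 marks the cytosolic enzyme and a final 2 the mitochondrial enzyme, which is encoded in the nucleus and imported. GARS1 and KARS1 encode enzymes that serve both compartments. Plasma cells make and secrete large amounts of immunoglobulin and therefore have a heavy demand for charged tRNA.

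The libraries held 63459322 to 72977082 counted fragments. ILF2 itself went from 717 and 733 CPM (counts scaled to library size, including TMM factors) in the non-silencing libraries to 107 and 114 CPM in the ILF2 shRNA libraries, a log2 fold change of -2.71 (edgeR: SE 0.07, adjusted p = 9.2e-39). The share of fragments from the mitochondrial genome was 0.351% and 0.307% in the non-silencing and 0.516% and 0.463% in the ILF2 shRNA libraries. All 8 plasma cell marker genes were tested, with a median of 289 RPKM (fragments per kilobase of exon, scaled to library size). Of these, edgeR called 5 (62.5%) at an adjusted p under 0.05, beside 20.3% of all genes tested. The 4 higher had log2 fold changes of 0.48 for MZB1, 0.41 for JCHAIN, 0.28 for CD38 and 0.25 for TNFRSF17. The 1 lower was SDC1 at -0.24. MZB1 lies on chromosome 5, whose genes as a whole are described below. Of 11 markers of T cells, monocytes, erythroid cells, fibroblasts and epithelium, 10 had at most 12 fragments in any library, while the T cell gene CD3E had 8.22 and 7.49 CPM in the non-silencing and 16.1 and 17.0 CPM in the ILF2 shRNA libraries; COL1A2 and EPCAM were at 0 throughout. Whether these shifts in mitochondrial fragments, plasma cell markers and CD3E bear on the results below was not tested.

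Transcripts for 5 of the 36 genes were higher with ILF2 shRNA and 0 were lower (adjusted p under 0.05 over all 19142 genes tested, by the quasi-likelihood test of edgeR). The risers were QARS1, LARS1 and HARS1 among the cytosolic enzymes and HARS2 and EARS2 among the mitochondrial enzymes, and their rises were small, from 1.15-fold to 1.24-fold. Of all tested genes, 20.3% were called in either direction, 10.2% as higher and 10.1% as lower. Among these 36 genes 13.9% were called, all of them as higher. That share lay above the 10.2% called higher and below the 20.3% called in either direction, and the difference was not tested. Taking an unadjusted p under 0.05, 8 of the 36 were higher and 1 lower, beside 15.5% and 15.4% of all genes. DESeq2 called the same 5 genes higher and 0 lower, when 16.6% of the genes it tested were called in either direction. The same 5 were called by limma-voom. The median log2 fold change of the 36 genes was 0.02, beside 0.00 for all genes tested, and their values ran from -0.17 to 0.31. Leaving out non-silencing replicate 1 kept the call of QARS1 alone (10.8% of all genes called), and leaving out non-silencing replicate 2 kept QARS1 and LARS1 (10.5%). Leaving out ILF2 shRNA replicate 1 kept all 5 (18.6%), while leaving out ILF2 shRNA replicate 2 kept QARS1, LARS1 and HARS2 and added FARSA as lower (15.3%). Once trends with GC content and exon length were removed, 9 genes were higher and 6 lower. This was a larger share of the 36 than the 30.2% called among all genes in that setting. Added as higher were RARS1, SARS1, VARS1 and YARS2. The lower genes were EPRS1, FARSA, FARSB, KARS1, MARS1 and AARS2.

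**Figure D1:**
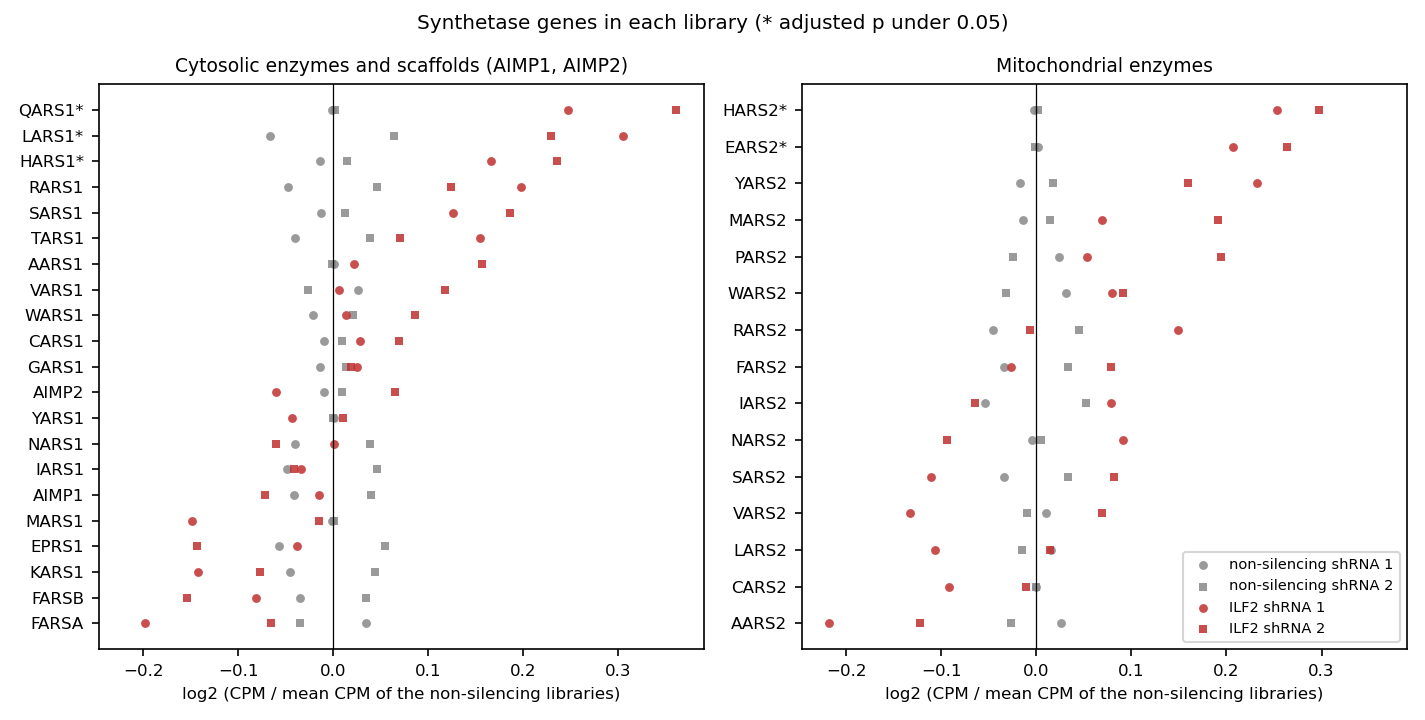
CPM of each gene in each of the 4 libraries, as log2 of the ratio to the mean of the non-silencing libraries, with cytosolic and scaffold genes on the left and mitochondrial genes on the right. Both ILF2 shRNA libraries lie above both non-silencing libraries for all 5 starred genes, whereas for 15 of the 36 genes the groups overlap.

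Chromosome 5 carries 5 of the 36 genes, and all 5 had a positive log2 fold change. These were LARS1, HARS1, RARS1, TARS1 and HARS2, with values from 0.11 to 0.28 and a median of 0.20, and 3 of the 5 were called. The chromosome as a whole stood apart: the median over its 900 tested genes was 0.15, the highest of the 23 chromosomes compared, and 29.7% of them were called higher and 3.33% lower. On the other chromosomes, 2 of 31 synthetase and scaffold genes were called, QARS1 and EARS2, and the median was 0.00. This is 6.45% of the 31, all as higher. Of all tested genes off chromosome 5, 19.7% were called, 9.28% as higher. The part of the chromosome-wide shift in the rises of LARS1, HARS1 and HARS2 was not tested.

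**Figure D2:**
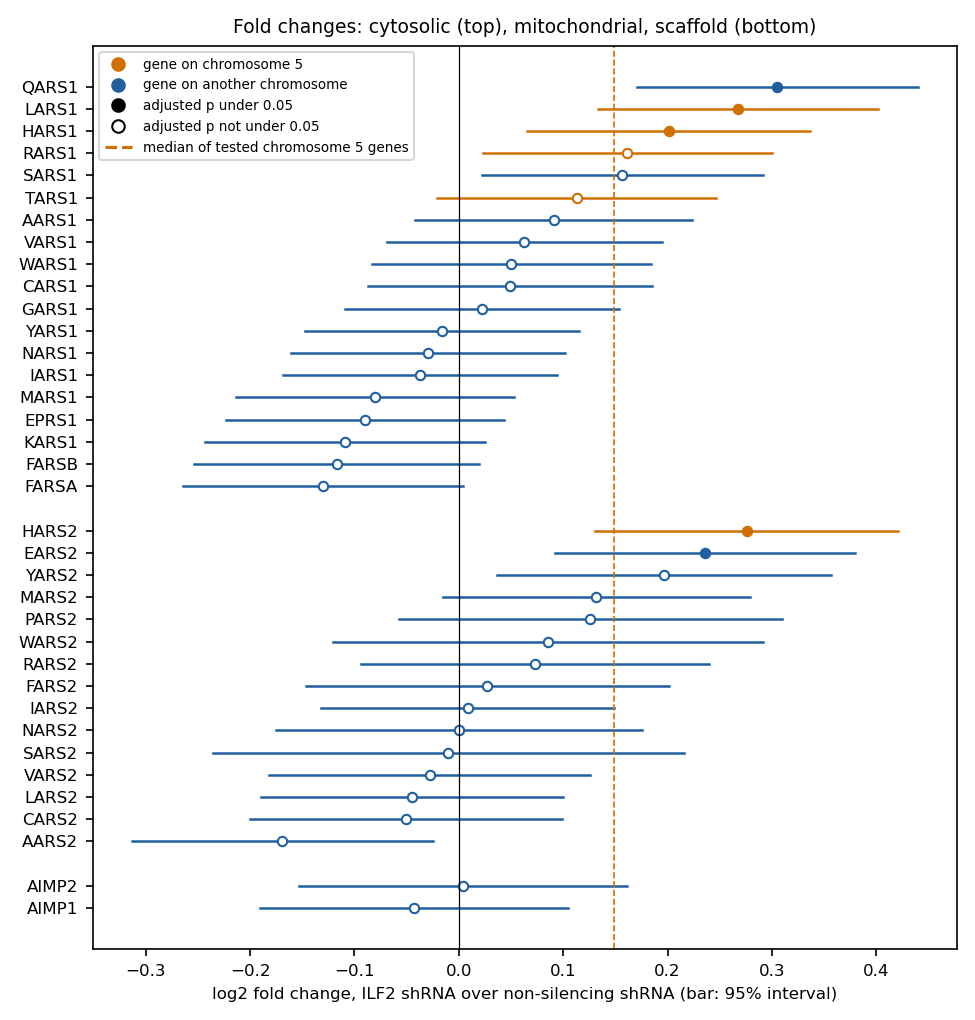
Log2 fold change of each gene with its 95% interval from edgeR's quasi-likelihood fit, in 3 blocks for cytosolic, mitochondrial and scaffold genes. The 5 genes on chromosome 5 lie between 0.11 and 0.28 around the dashed line at 0.15, the median of that chromosome, and QARS1 at 0.31 and EARS2 at 0.24 are the filled points from other chromosomes.

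QARS1 encodes the enzyme that charges glutamine tRNA in the cytosol and belongs to the multisynthetase complex, an assembly of several synthetases on scaffold proteins. QARS1 (ENSG00000172053, GRCh37 chromosome 3, 49133365 to 49142553, minus strand) had 187 CPM in each non-silencing library and 222 and 240 CPM in the ILF2 shRNA libraries. The ILF2 shRNA libraries were therefore both higher, although they also differed more from each other. QARS1 rose from 187 ± 0.301 to 231 ± 12.9 CPM (SD, n = 2), which is 0.31 on the log2 scale (edgeR: SE 0.07, adjusted p = 4.3e-04). Its call held in each alternative setting, with an adjusted p of up to 0.0439 when a library was left out. Beside QARS1, 10 tested genes were looked up after the values were seen, the nearest in equal numbers on either side. They had log2 fold changes from -0.32 to 0.31 with a median of 0.00, and edgeR called 0 of them.

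LARS1 (ENSG00000133706, chromosome 5, 145492601 to 145562223, minus strand) encodes cytosolic leucyl-tRNA synthetase, a complex member that is also known as a leucine sensor for the growth kinase mTORC1. It had 252 and 276 CPM in the non-silencing libraries and 327 and 310 CPM in the ILF2 shRNA libraries. LARS1 rose by a log2 fold change of 0.27 (edgeR: SE 0.07, adjusted p = 0.00213), but without non-silencing replicate 1, the lower of its 2 controls, the value was 0.20 and the call ended (adjusted p = 0.248). Its mitochondrial counterpart LARS2, on chromosome 3, had a log2 fold change of -0.04 (95% interval -0.19 to 0.10).

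HARS1 and HARS2 encode the cytosolic and mitochondrial histidyl-tRNA synthetases and lie head to head on chromosome 5. HARS1 (ENSG00000170445, GRCh37 chromosome 5, 140052758 to 140071609, minus strand) had 127 and 130 CPM in the non-silencing and 144 and 151 CPM in the ILF2 shRNA libraries. HARS2 (ENSG00000112855, GRCh37 chromosome 5, 140071011 to 140078889, plus strand) had 45.7 and 45.8 CPM against 54.6 and 56.3 CPM. In both genes the ILF2 shRNA libraries were the higher pair. The log2 fold change was 0.20 for HARS1 (edgeR: SE 0.07, adjusted p = 0.0261) and 0.28 for HARS2 (edgeR: SE 0.07, adjusted p = 0.00353). The HARS1 call ended without non-silencing replicate 1 (adjusted p = 0.296), non-silencing replicate 2 (0.209) or ILF2 shRNA replicate 2 (0.126). The HARS2 call ended without non-silencing replicate 1 (adjusted p = 0.0883) or replicate 2 (0.0805). These genes overlap on opposite strands in the annotation used for counting, and the authors' counting used strand. On the same strand, 2.20% of the exon length of HARS1 is shared with DND1 and 4.44% of that of HARS2 with ZMAT2.

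The start sites of this gene pair face away from each other with 84 bases between them in RefSeq's GRCh38 promoter table (chr5:140691371-140691454, plus strand, HARS1 to the left and HARS2 to the right). The stretch is printed because the 2 genes that flank it were both called higher. Capitals mark CCGGAAGT, a motif bound by ETS family factors, and its reverse complement, a motif chosen after the sequence was seen. It was searched on both strands and matched once on each without overlap. Of all 35116 promoter windows in that table, 4.14% hold the motif at all. That share was not made for 2 matches or for a stretch of 84 bases.
HARS1-HARS2: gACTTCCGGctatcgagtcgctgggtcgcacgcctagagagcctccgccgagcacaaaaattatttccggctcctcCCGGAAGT
A match describes the letters only. The base composition of this stretch was 59.5% G and C.

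EARS2 (ENSG00000103356, chromosome 16, 23533335 to 23569052, minus strand) encodes mitochondrial glutamyl-tRNA synthetase. In mitochondria this enzyme also loads glutamate onto glutamine tRNA, and the amidotransferase made of QRSL1, GATB and GATC then converts it to glutamine. EARS2 had 51.4 and 51.3 CPM in the non-silencing libraries and 59.3 and 61.7 CPM in the ILF2 shRNA libraries. The groups did not overlap, which was so for 56.5% of all genes tested. UBFD1 overlaps EARS2 on the opposite strand and had a log2 fold change of 0.61. The authors' counting used strand, and whether fragments of UBFD1 reached the EARS2 count was not tested. EARS2 rose by a log2 fold change of 0.24 (edgeR: SE 0.07, adjusted p = 0.0128). The call ended without non-silencing replicate 1 (adjusted p = 0.155), non-silencing replicate 2 (0.168) or ILF2 shRNA replicate 2 (0.0646). EPRS1, whose product charges glutamate and proline in the cytosol, had a log2 fold change of -0.09 (95% interval -0.22 to 0.04).

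Of the amidotransferase subunits, GATC rose from 23.01 and 23.8 to 29.6 and 29.0 CPM (log2 fold change 0.32, SE 0.08; edgeR adjusted p = 0.00183), and lost its call when non-silencing replicate 1 was left out (adjusted p = 0.0717). Another gene on the same strand shares 16.7% of its exon length, so its level is uncertain. GATB had a log2 fold change of 0.12 and QRSL1 one of -0.06, and neither was called.

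Levels were compared between genes as fragments per kilobase of exon scaled to library size (RPKM). Exon length takes in every annotated exon of a gene, whether or not these cells use it. The cytosolic enzymes ranged from 11.3 RPKM for CARS1 to 133 RPKM for FARSA, with a median of 45.7 RPKM. The mitochondrial enzymes ranged from 1.53 RPKM for SARS2 to 26.6 RPKM for IARS2, with a median of 8.63 RPKM. In all 14 pairs that charge the same amino acid the cytosolic gene had the higher mean, by 1.11-fold to 27.3-fold. Histidine was at the low end, with 16.4 RPKM for HARS1 and 14.8 RPKM for HARS2, and the ratio lay between 1.07 and 1.15 in the 4 libraries. This near equality depends on exon length, 8436 bases for HARS1 and 3422 for HARS2. Their mean CPM was 138 and 50.6. Serine was at the high end, but 53.1% of the exon length of SARS2 is shared with other genes on the same strand, where fragments are taken to be left out of the count. VARS2 shares 22.0% of its exon length in the same way. Pseudogene copies are annotated for KARS1, CARS1, AIMP1, AARS1, FARSB, GARS1, NARS1, RARS1, WARS1, IARS2 and WARS2, whose levels are uncertain to that extent.

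**Figure D3:**
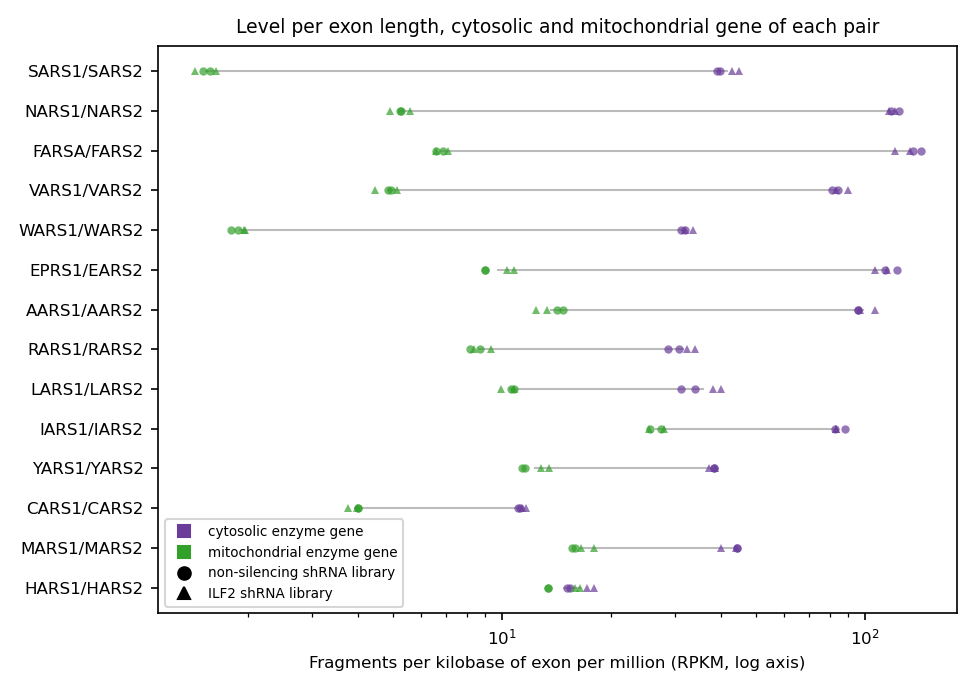
RPKM of the cytosolic and mitochondrial gene of each of 14 pairs in each library, on a log axis. The cytosolic gene lies to the right in every pair, from 1.11-fold for HARS1 over HARS2 to 27.3-fold for SARS1 over SARS2, and the libraries of the 2 groups lie close together beside these gaps.

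Summed over the 19 cytosolic genes, the level was 1124 and 1152 RPKM in the non-silencing libraries and 1136 and 1158 RPKM in the ILF2 shRNA libraries. The groups overlapped. Over the 15 mitochondrial genes the sum was 138 and 140.0 RPKM against 145 and 146 RPKM, a log2 ratio of 0.07 with no overlap between the groups. Taken singly, 56.5% of all genes tested showed no overlap either. In bulk RNA these sums describe the whole culture, and fewer cells of a type cannot be told apart from less RNA per cell.

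Among the 16 cytosolic enzyme genes that were not called, log2 fold changes ran from -0.13 to 0.16, and every 95% interval lay between -0.30 and 0.30. The 3 with the highest RPKM were FARSA, NARS1 and EPRS1. FARSA encodes the catalytic subunit of phenylalanyl-tRNA synthetase. It had 347 and 330 CPM in the non-silencing libraries and 295 and 324 CPM in the ILF2 shRNA libraries, a log2 fold change of -0.13 (edgeR: SE 0.07, adjusted p = 0.177), and was called lower only without ILF2 shRNA replicate 2 among the libraries left out (adjusted p = 0.0382). FARSB, the gene for the other subunit of the same enzyme, had a value of -0.12. NARS1, for asparagine, had 482 and 509 CPM against 496 and 475 CPM, so its groups overlapped, with a log2 fold change of -0.03. EPRS1 had 617 and 667 CPM against 626 and 581 CPM and overlapped too.

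RARS1 and SARS1, for arginine and serine, came closest to the threshold among the cytosolic genes and are given, like the other genes of this paragraph, after their values were seen. RARS1 had 98.3 and 105 CPM against 117 and 111 CPM, a log2 fold change of 0.16 (edgeR: SE 0.07, adjusted p = 0.0916). SARS1 had 150.1 and 153 CPM against 165 and 172 CPM, also with 0.16 (edgeR: SE 0.07, adjusted p = 0.0926). In both genes the ILF2 shRNA libraries were the higher pair. The remaining values were 0.11 for TARS1 (threonine), 0.09 for AARS1 (alanine), 0.06 for VARS1 (valine), 0.05 for WARS1 (tryptophan) and CARS1 (cysteine) and 0.02 for GARS1 (glycine). They were -0.02 for YARS1 (tyrosine), -0.04 for IARS1 (isoleucine), -0.08 for MARS1 (methionine) and -0.11 for KARS1 (lysine). WARS1, also known as a target of interferon, had 198 and 204 CPM against 203 and 213 CPM, with overlapping groups.

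Among the 13 mitochondrial enzyme genes that were not called, log2 fold changes ran from -0.17 to 0.20. Their counts were lower and their intervals wider, and 10 of the 13 had an interval within -0.3 to 0.3. AARS2, for alanine, had 63.2 and 60.9 CPM in the non-silencing libraries and 53.4 and 57.0 CPM in the ILF2 shRNA libraries, a log2 fold change of -0.17 (edgeR: SE 0.07, adjusted p = 0.0894). YARS2, for tyrosine and also named after its value was seen, had 24.4 and 25.0 CPM against 29.0 and 27.5 CPM, a log2 fold change of 0.20 (edgeR: SE 0.08, adjusted p = 0.0734). The groups did not overlap in either gene, which was so for 21 of the 36 genes (58.3%), 15 higher and 6 lower. Over all genes tested the share was 56.5%, 28.5% higher and 28.0% lower.

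IARS2, MARS2 and AARS2 had the highest RPKM of the mitochondrial genes that were not called. IARS2 had 106 and 114 CPM against 116 and 105 CPM, which overlap, and a log2 fold change of 0.01. MARS2 had 47.1 and 48.1 CPM against 49.9 and 54.4 CPM, a log2 fold change of 0.13 (edgeR: SE 0.07, adjusted p = 0.219). The values were 0.13 for PARS2 (proline), 0.09 for WARS2, 0.07 for RARS2, 0.03 for FARS2 and 0.00 for NARS2. They were -0.01 for SARS2, -0.03 for VARS2, -0.04 for LARS2 and -0.05 for CARS2. In 3 of the 14 same-amino-acid pairs the cytosolic and mitochondrial genes had log2 fold changes of the same sign, all positive: those for histidine, arginine and tryptophan. RARS2, at 0.07, turned negative when ILF2 shRNA replicate 1 was left out.

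The scaffold genes were not called. AIMP1, which encodes a scaffold that also gives rise to a secreted cytokine, had 46.7 and 49.4 CPM against 47.5 and 45.7 CPM, a log2 fold change of -0.04 (95% interval -0.19 to 0.10). AIMP2, whose product anchors several complex members, had 30.2 and 30.6 CPM against 29.2 and 31.8 CPM, with 0.00 (95% interval -0.15 to 0.16). The groups overlapped for both. EEF1E1, for the other scaffold of the complex, fell from 14.4 and 15.8 to 13.0 and 10.98 CPM, a log2 fold change of -0.33 (edgeR: SE 0.09, adjusted p = 0.00629). That call ended without non-silencing replicate 2 (adjusted p = 0.162) or ILF2 shRNA replicate 2 (adjusted p = 0.182), and 18.7% of the gene's exon length is shared with a read-through gene.

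Of the 7 cytosolic enzyme genes in the complex, QARS1 and LARS1 were called, with a median of -0.04 over the 7, and of the 12 outside it HARS1 was called, with a median of 0.05. Synthetases also fall into structural classes by the fold of the active site. Of 19 class I genes 3 were called higher (QARS1, LARS1 and EARS2; median 0.05), and of 15 class II genes 2 were (HARS1 and HARS2; median 0.02). EPRS1, which carries an enzyme of each class, was counted in class I. The shares called, all as higher, were 15.8% in class I and 13.3% in class II. For cytosolic enzymes they were 28.6% in the complex and 8.33% outside it. Of all genes, 10.2% were called higher and 20.3% in either direction. Differences between these groups were not tested.

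**Figure D4:**
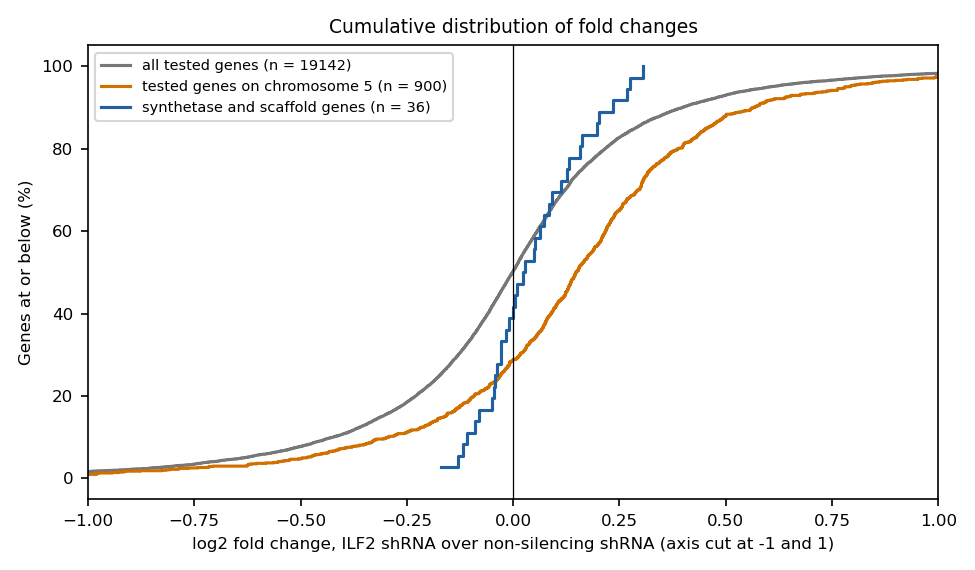
Cumulative share of genes at or below each log2 fold change, for all 19142 tested genes, the 900 on chromosome 5 and the 36 synthetase and scaffold genes. The synthetase curve is steeper than the curve of all genes, with values between -0.17 and 0.31. It crosses 50% near its median of 0.02, left of the chromosome 5 curve with its median of 0.15. The 36 genes had a median level of 21.6 RPKM, beside 2.48 RPKM for all genes tested. Whether abundance bears on the steepness was not tested.

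Many cytosolic synthetase genes are known targets of ATF4, the transcription factor of the integrated stress response, which binds a composite element with the core TGATGNAA. This core was searched on both strands in 300 bases around each start site in RefSeq's GRCh38 promoter table, which held 31 of the 36 genes. It occurred in 8 of the 31 genes (25.8%), 7 of 16 cytosolic and 1 of 13 mitochondrial, beside 4.46% of all 27305 genes in the table (3.62% of promoter windows). The matches are shown because they mark which genes hold the letters of the element, in capitals, each on the strand that reads TGATGNAA.
AARS1 (chr16:70289675-70289704, plus strand): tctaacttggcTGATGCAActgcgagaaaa
CARS1 (chr11:3057407-3057436, plus strand): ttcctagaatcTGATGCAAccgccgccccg
GARS1 (chr7:30594834-30594863, minus strand): ggctcggagcaTGATGAAAtcgccgcgtaa
IARS1 (chr9:92293692-92293721, plus strand): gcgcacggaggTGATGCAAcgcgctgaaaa
MARS1 (chr12:57488053-57488082, minus strand): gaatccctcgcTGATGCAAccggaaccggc
NARS1 (chr18:57621804-57621833, minus strand): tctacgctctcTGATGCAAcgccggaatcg
TARS1 (chr5:33440956-33440985, minus strand): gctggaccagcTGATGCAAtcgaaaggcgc
YARS2 (chr12:32756076-32756105, minus strand): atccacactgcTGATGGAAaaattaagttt
The genes with a match had log2 fold changes from -0.08 to 0.20 with a median of 0.04, and 0 of the 8 were called. The 23 genes without a match had a median of 0.03, and 4 of them were called (QARS1, HARS1, HARS2 and EARS2), while LARS1 was not in the table. With 10.2% of all genes called higher, counts this small do not set the genes with and without a match apart, and the difference was not tested.

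Genes of the integrated stress response and its ATF4 targets went both ways. Of 25 tested, 2 rose and 2 fell (16.0%, beside 20.3% of all genes), with a median log2 fold change of -0.04. Once trends with GC content and exon length were removed, 3 were higher and 8 lower, when 30.2% of all genes were called. CTH, for an enzyme of cysteine synthesis, rose from 2.74 and 2.64 to 3.91 and 3.70 CPM, a log2 fold change of 0.50 (edgeR: SE 0.13, adjusted p = 0.00429), and lost the call without non-silencing replicate 2 (adjusted p = 0.058) and in DESeq2 (0.0663). SESN2, for the stress protein sestrin 2, rose by 0.26 (adjusted p = 0.0155 by edgeR), and its call ended without non-silencing replicate 1, non-silencing replicate 2 or ILF2 shRNA replicate 2 (adjusted p = 0.0895, 0.204 and 0.182). ATF5, for a related transcription factor, went from 152 and 133 to 109 and 107 CPM, a log2 fold change of -0.40 (adjusted p = 1.4e-05 by edgeR) that was called with each library left out. EIF2AK3, for the kinase PERK, had -0.18 (adjusted p = 0.0437 by edgeR), which missed the threshold when non-silencing replicate 1, non-silencing replicate 2 or ILF2 shRNA replicate 2 was left out (adjusted p = 0.156, 0.556 and 0.0693). ATF4 itself, named after its value was seen, had 395 and 385 CPM against 374 and 403 CPM, with overlapping groups and a log2 fold change of 0.00.

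Of 11 genes that help or edit aminoacylation, GATC and DTD2 rose and EEF1E1 fell, with a median of 0.11. These calls make up 27.3% of the list, beside 20.3% of all genes called in either direction. DTD2, for a deacylase that clears wrongly charged tRNA, rose by 0.26 (adjusted p = 0.0484 by edgeR), and its call ended without non-silencing replicate 1 (adjusted p = 0.496) or ILF2 shRNA replicate 1 (adjusted p = 0.444), and in DESeq2 (0.19) and limma-voom (0.0598). Another gene on the same strand shares 16.3% of the exon length of DTD2, so its level is uncertain. Of 16 genes for tRNA maturation and export, 2 rose and 0 fell, with a median of 0.01. The 2 are 12.5% of the list, beside 10.2% of all genes called higher. Unadjusted p gave 2 higher and 1 lower, and DESeq2 gave 2 and 0. RTCB, the tRNA splicing ligase, went from 199 and 213 to 233 and 247 CPM, a log2 fold change of 0.22 (adjusted p = 0.0122 by edgeR). THG1L, a tRNA-histidine guanylyltransferase that adds the extra guanosine recognised by histidyl-tRNA synthetase, went from 20.5 and 20.0 to 25.6 and 24.2 CPM, a log2 fold change of 0.30 (adjusted p = 0.00518 by edgeR). THG1L lies on chromosome 5 too. Both calls ended without non-silencing replicate 1 (adjusted p = 0.345 for RTCB and 0.0522 for THG1L) or non-silencing replicate 2 (0.0853 and 0.101), and that of RTCB without ILF2 shRNA replicate 2 (0.071).

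Of the 9 elongation factor genes, 8 were tested, 1 rose and 0 fell by edgeR, with a median of 0.02. The 1 is 12.5% of those tested, beside 10.2% of all genes called higher. Unadjusted p gave 2 higher and 0 lower, and DESeq2 gave 1 and 0. The riser was GFM2, a mitochondrial ribosome recycling factor gene on chromosome 5, which went from 65.1 and 71.0 to 86.4 and 85.1 CPM, a log2 fold change of 0.33 (adjusted p = 2.6e-04 by edgeR), and lost the call without non-silencing replicate 1 (adjusted p = 0.0824). EEF1G had 0 to 2 fragments in a library and did not pass the filter on low counts. Another gene on the same strand shares 99.2% of its exon length.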

How the data were processed

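Counts per gene are the authors' deposited fragment counts, made with featureCounts 1.4.6-p2 on the reverse strand with the Ensembl GRCh37 annotation, per the file headers. The submitters' processing notes list STAR 2.3.0 and SAMtools 0.1.19, while their design text names Tophat2. Fragments in several genes, for which the headers record no option, are assumed to be dropped, as by default. Of 63677 genes, 55665 matched a symbol by Ensembl identifier. Counts were fitted in edgeR 4.0.16 (R 4.3.3; TMM, filterByExpr with a minimum count of 10, robust quasi-likelihood test, two-sided, group as the only term) with Benjamini-Hochberg adjustment over 19142 genes, and called at an adjusted p under 0.05. SE and 95% intervals come from the F statistic. CPM and RPKM use TMM-adjusted library sizes. Residual degrees of freedom were 2, with a common biological coefficient of variation of 5.38%. After edgeR pooled the spread over genes, the median total was 58.1 degrees of freedom. SE, intervals and p-values therefore rest mostly on the pooled spread, not on that of each gene. The procedure was tested on simulated data. Promoter sequences are from RefSeq (GRCh38.p14), and gene positions from the deposited files (GRCh37). Alternatives were DESeq2 1.42.0, limma-voom 3.58.1, other size factors and filters, chromosome 5 left out, a GC and length correction (mgcv 1.9.3), a replicate block and each library left out. Named were all called genes, the 3 most abundant uncalled genes of each compartment, and up to 3 called genes of each pathway list. Members and lists were chosen with earlier results of these data known.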

Additional observations from a re-analysis of the deposited data

How the results depend on the processing

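The 5 calls were the same in DESeq2, limma-voom, DESeq2 or upper-quartile size factors and both other low-count filters. Over all genes, 1960 were higher and 1925 lower; lower calls were 1249 in DESeq2. The GC and length correction gave 2863 higher and 2926 lower calls, of which 6 and 5 were cytosolic and 3 and 1 mitochondrial synthetase genes. Without chromosome 5, 1 cytosolic and 1 mitochondrial gene were higher, and the cytosolic median, 0.05 as reported, was -0.0104. The mitochondrial median, 0.03 as reported, was 0.0212 with upper-quartile factors, 0.0197 with no filter and 0.012 with the GC and length correction.

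Replicate numbers are shared between the groups but were not shown to pair the samples, since differences between replicates 1 and 2 correlated at -0.30 between groups. With the replicate block, 1291 genes were higher and 1297 lower, 2 cytosolic genes (QARS1 and LARS1) and 0 mitochondrial genes were higher; adjusted p was 0.179 for HARS1, 0.0562 for HARS2 and 0.118 for EARS2 in this edgeR fit. A crossed replicate block, added after seeing the data, gave 2871 higher and 2857 lower genes, with 6 and 2 among cytosolic and 4 and 1 among mitochondrial genes.

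Leaving out each library in turn gave 1029 to 1899 higher and 1070 to 1822 lower genes, 1 to 3 higher and 0 to 1 lower cytosolic genes, and 0 to 2 higher mitochondrial genes. The lone sample of a group is then assumed to vary like the other group. The cytosolic median ran from 0.0136 to 0.0725 and the mitochondrial median from -0.005 to 0.0819.

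Values near 0 changed sign, with causes that were not tested. NARS2 was -0.0033 in limma-voom, -0.0004 with DESeq2 size factors, -0.0058 with upper-quartile factors, -0.0074 with no filter, -0.0036 at 1 CPM in 2 libraries, -0.0201 with the GC and length correction, -0.0015 with the replicate block and -0.0016 with the crossed one. AIMP2 was -0.0024 with upper-quartile factors, -0.0038 with no filter, -0.0002 at 1 CPM and -0.0373 with the GC and length correction, which gave -0.005 for IARS2 and 0.012 for SARS2. ATF4 was 0.0018 without chromosome 5. With a library left out, the ranges were -0.0848 to 0.0109 for IARS1, -0.0689 to 0.0104 for NARS1, -0.0429 to 0.0127 for YARS1, -0.027 to 0.0819 for FARS2, -0.0617 to 0.0785 for IARS2, -0.107 to 0.0174 for LARS2, -0.0913 to 0.0908 for NARS2, -0.0035 to 0.1495 for RARS2, -0.111 to 0.0842 for SARS2, -0.1331 to 0.0718 for VARS2, -0.0606 to 0.0679 for AIMP2 and -0.0595 to 0.0521 for ATF4.

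With 2 libraries per group, SEs of 0.07 to 0.11 limit what could be called, most of all for SARS2 and WARS2, the least abundant enzymes.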

Other observations

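Genes beside the called synthetase genes were described after their values were seen. For each, 10 tested genes were taken, the nearest in equal numbers on either side by gene midpoint. Those of HARS2 lay up to 245 kilobases away and had a median log2 fold change of 0.17. Of them, 7 had a positive value and 3 were called higher, beside 29.7% called higher on chromosome 5. The 3 were HARS1 itself, IK and VTRNA1-3. Of the neighbours, IK, which encodes a splicing factor, had 0.25 (adjusted p = 0.00515 by edgeR), WDR55 0.17 (adjusted p = 0.0801 by edgeR) and ZMAT2, another splicing factor gene, 0.16 (adjusted p = 0.0912 by edgeR). The 10 taken beside LARS1, up to 2791 kilobases away, had a median of 0.11, with 3 called higher and 1 lower.

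The 10 genes taken in the same way beside EARS2 on chromosome 16 had a median of 0.02, with 3 called higher and 0 lower. On chromosome 16 as a whole, 8.47% of tested genes were called higher. The 3 were SCNN1G, SCNN1B and UBFD1. UBFD1, which overlaps EARS2 on the opposite strand, was higher with ILF2 shRNA, at 101 CPM against 66.2 CPM (log2 fold change 0.61, SE 0.07; edgeR adjusted p = 4.1e-10). ARHGAP9, which overlaps MARS1 on the opposite strand, was lower, at 12.02 CPM against 15.6 CPM (log2 fold change -0.37; edgeR adjusted p = 0.00183), while MARS1 had -0.08.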
